A study of Mus musculus with 4 samples.

Results

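The ATF4 stress response genes described here are 10 mouse genes that were chosen by name: Atf3, Atf4, Atf5, Ddit3, Ddit4, Trib3, Sesn2, Ppp1r15a, Asns and Cebpb. The choice was made with earlier results of these data known. All 10 were found among the 54532 genes of the deposited table, in 11 rows, because Ddit3 has a second row of 105 bp that holds 0 reads in every library. All 10 passed the filter on low values, a mean of at least 1 FPKM (a read level that the authors scaled to gene length and library size). RNA came from naive CD4+ T cells of the spleen of wild-type (WT) mice, cultured for 3 days under conditions that favour Tfh cells (T follicular helper cells), which support antibody responses of B cells. The control group received no treatment and the treated group received dimethyl fumarate (DMF), an ester of fumaric acid that reacts with protein thiols, at a dose that the labels do not give. Each group holds 2 libraries, and nothing in the labels says whether these came from separate mice or cultures, so p-values reflect the spread among these libraries alone, and that spread may be technical. The series asks, by its title, how DMF acts on Tfh differentiation through Nrf2, and the comparison made here is DMF minus control.

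The integrated stress response begins when 1 of 4 kinases phosphorylates the translation initiation factor eIF2. General protein synthesis then slows while translation of the ATF4 mRNA rises, so ATF4 is controlled largely at the level of its protein. ATF4 is a basic leucine zipper (bZIP) transcription factor that pairs with C/EBP proteins and switches on genes for amino acid supply, further transcription factors and feedback inhibitors. T cells need such amino acid supply when they are activated and divide. FPKM measure transcripts and measure neither the ATF4 protein nor eIF2 phosphorylation.

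RefSeq promoter windows (GRCm38.p6, 250 bases before to 50 after a start) were found for all 10 genes, 11 windows in all because Atf5 has 2 starts. They were searched on both strands for the C/EBP-ATF response element TGATGNAA, the composite site that ATF4 and C/EBP dimers bind, and for the cAMP response element TGACGTCA, which ATF and CREB family dimers bind. The first was present in 3 member windows (Atf3, Trib3 and Asns), against 3.97% of all 32851 windows. The second was present in 1 (Ppp1r15a), against 1.79% of all windows. The 4 sites are printed because their genes differ in direction between the groups, with the match in capitals and 11 bases on each side, 5′ to 3′ along the gene, all on the minus strand.
Asns, chr6:7693214-7693243: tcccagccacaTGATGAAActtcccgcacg
Trib3, chr2:152344028-152344057: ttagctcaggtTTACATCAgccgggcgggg
Atf3, chr1:191183425-191183454: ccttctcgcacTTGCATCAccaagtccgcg
Ppp1r15a, chr7:45526262-45526291: cgcctctccggTGACGTCAgcacagcgccg
The Asns match begins 23 bases before its RefSeq start and lies inside the first exon that GENCODE M21 gives this gene. The Atf3 match begins 110 bases before the RefSeq start, outside the exons of Atf3. It reads as TGATGNAA on the opposite strand, as does the Trib3 match. The Trib3 match begins 14 bases past the first base that RefSeq gives the transcript. It lies outside the GENCODE M21 exons of Trib3 and upstream of the deposited span of that gene. The palindromic match of Ppp1r15a begins 12 bases before its start. A match is a description of letters and does not show that a factor binds there.

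The wider sequence upstream of the RefSeq starts of Atf3 and Ppp1r15a follows. Both genes had DMF values under those of each control while they carry exact matches to different elements. Capitals mark the same matches. The Atf3 stretch lies inside the deposited span of that gene (chr1:191170296-191218039), before an internal RefSeq start, and FPKM per gene do not separate starts. It stops where a GENCODE exon begins. Across that cut the Atf3 window reads ttacgtca, close to TGACGTCA but no exact match.
Atf3, chr1:191183341-191183583, minus strand: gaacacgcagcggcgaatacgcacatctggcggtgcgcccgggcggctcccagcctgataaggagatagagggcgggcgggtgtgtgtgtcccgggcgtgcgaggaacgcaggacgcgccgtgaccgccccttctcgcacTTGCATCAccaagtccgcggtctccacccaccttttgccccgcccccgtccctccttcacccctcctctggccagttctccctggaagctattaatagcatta
Ppp1r15a, chr7:45526269-45526518, minus strand: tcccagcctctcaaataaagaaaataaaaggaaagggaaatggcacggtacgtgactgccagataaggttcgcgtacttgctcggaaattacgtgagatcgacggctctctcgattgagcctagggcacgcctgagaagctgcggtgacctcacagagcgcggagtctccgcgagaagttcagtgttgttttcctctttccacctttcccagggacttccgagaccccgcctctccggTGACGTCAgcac

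The 10 genes did not move as 1 group. In Trib3, Asns, Sesn2 and Atf5 both DMF libraries exceeded both controls, by 1.91, 1.6, 1.4 and 1.32 times in mean FPKM. In Atf3 and Ppp1r15a both were under both controls, at 0.6 and 0.796 times the control mean. Atf4, Ddit3, Ddit4 and Cebpb had DMF values that overlapped the range of the controls. The 4 genes above both controls stand against 26.4% of the 12166 tested genes, and the 2 below both stand against 26.8%. No member passed limma's test at an adjusted p under 0.05, and 0% of all tested genes did. At an unadjusted p under 0.05 limma had 3 of the 10 genes (Trib3, Atf3 and Asns) and 9.45% of all tested genes, 1150 in number. limma's voom on the recovered reads called 0 genes and had 5 of the 10 (Trib3, Asns, Sesn2, Atf5 and Atf3) and 1183 of all tested genes, or 9.72%, at an unadjusted p under 0.05. The median log2 change of the 10 genes was -0.07, and that of all tested genes was -0.01. The median of the 10 turned to 0.36 without control 2, 0.47 under quantile normalization and 0.24 with the gene length trend removed, and was -0.33 without control 1.

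**Figure D1:**
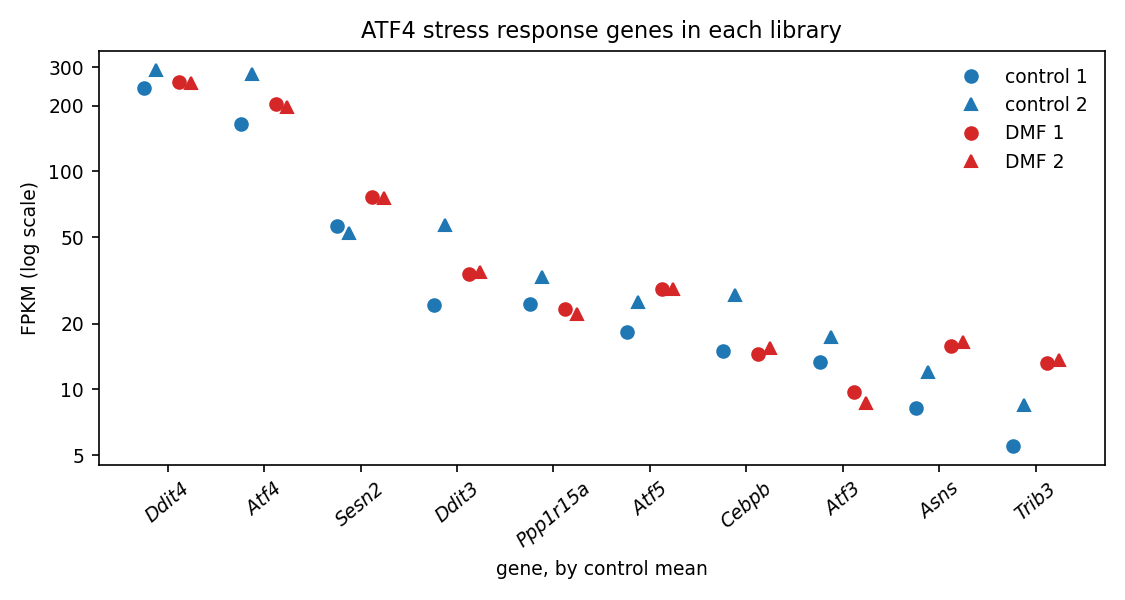
FPKM of the 10 genes (log axis) in each of the 4 libraries, with circles and triangles for replicates 1 and 2, blue for control and red for DMF. The DMF symbols of Trib3, Asns, Sesn2 and Atf5 lie above both controls, those of Atf3 and Ppp1r15a lie below both, and control 2 is the highest library for 6 of the 10 genes.

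The 4 libraries hold 15900118 to 17516953 recovered reads, of which 22032 to 27510 fall in these 10 genes. The FPKM imply library sizes of 17725674 and 13929627 in controls 1 and 2 and 18302380 and 18672223 in DMF libraries 1 and 2. Control 2 alone had an implied size below its recovered reads (15900118), so its FPKM are higher than a division by those reads would give. Trimmed mean scaling, which rescales whole libraries, moved the median log2 change of the 10 genes only from -0.07 to -0.05. Control 2 stood apart: over all tested genes the log2 difference had an SD of 0.745 between the 2 controls and of 0.316 between the 2 DMF libraries. It was the highest of the 4 libraries in 6 of the 10 genes (44.2% of all tested genes) and above control 1 in 9 of the 10, Sesn2 being the exception (53.2% of all tested genes). The 10 genes are 1504 to 3475 bp long, and the 3278 tested genes of such lengths had a median of 0.414 for the log2 value of control 2 minus the mean of the other 3 libraries, against 0.35 for the 10 genes and 0.05 for all tested genes. For each of the 10 genes the value without control 2 is given. For the other lists the changes of single genes come from all 4 libraries, so control 2 can weigh on them.

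Among the transcription factors, Atf4 (ENSMUSG00000042406, protein coding, chr15:80255184-80257541, plus strand), the activator of the response, was at 166 and 279 FPKM in controls 1 and 2 and at 205 and 198 FPKM in DMF libraries 1 and 2. Both DMF libraries lay between the 2 controls, a position that 3 of the 10 genes shared (Atf4, Ddit3 and Ddit4) and that 14.5% of all tested genes had. The difference over all 4 libraries was -0.10 ± 0.35 on the log2(FPKM + 1) scale (SE, n = 2 per group, limma adjusted p = 0.896). It was 0.28 without control 2 and -0.47 without control 1. With all 4 libraries it was 0.45 under quantile normalization, 0.15 with the gene length trend removed and 0.071 with voom, so its sign was not settled. With 98.2% of tested genes at or below its mean level, Atf4 was among the abundant transcripts of these cells.

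Atf5 (ENSMUSG00000038539, chr7:44812256-44816658, minus strand), a bZIP factor whose translation is also raised when eIF2 is phosphorylated, was at 18.3 and 25.3 FPKM in the controls and at 28.8 FPKM in each DMF library. Both DMF values exceeded the higher control by a margin smaller than the gap between the controls. The log2 difference was 0.40 ± 0.23 (SE, n = 2 per group, limma adjusted p = 0.561), 0.63 without control 2 and 0.18 without control 1. The gene overlaps Nup62 on the other strand, which holds 2466 to 3025 reads per library against 646 to 1072 for Atf5, and with counting by strand not stated the reads of the overlap cannot be assigned.

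Atf3 (ENSMUSG00000026628, chr1:191170296-191218039, minus strand), a bZIP factor induced by many stresses that often acts as a repressor, was at 13.3 and 17.4 FPKM in the controls and at 9.69 and 8.68 FPKM in the DMF libraries. It was the member with the lowest ratio, and both DMF libraries lay below the lower control. The log2 difference was -0.67 ± 0.21 (SE, n = 2 per group, limma adjusted p = 0.486), -0.49 without control 2 and -0.85 without control 1. Its sign was the same under all 15 alternative settings.

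Ddit3 (ENSMUSG00000025408, chr10:127290774-127296288, plus strand) encodes CHOP, a C/EBP family protein linked to cell death under lasting stress of the endoplasmic reticulum (ER). It was at 24.4 and 56.8 FPKM in the controls and at 33.8 and 34.7 FPKM in the DMF libraries. The controls differed by 2.33 times, the widest gap among the 10 genes, and the DMF libraries lay between them. The log2 difference of -0.12 ± 0.44 (SE, n = 2 per group, limma adjusted p = 0.895) was 0.47 without control 2 and -0.71 without control 1, and 0.15 under quantile normalization, 0.21 with the length trend removed and 0.0471 with voom. Ddit3 overlaps Mars on the other strand, with 1717 to 2405 reads per library.

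Cebpb (ENSMUSG00000056501, chr2:167688915-167690418, plus strand) encodes C/EBP beta, a partner of ATF4 and CHOP in bZIP dimers. It was at 15 and 27.1 FPKM in the controls and at 14.5 and 15.5 FPKM in the DMF libraries. Control 1 and both DMF libraries held nearly the same level, and only control 2 was higher. The log2 difference was -0.40 ± 0.32 (SE, n = 2 per group, limma adjusted p = 0.583), 0.00 without control 2 and -0.81 without control 1. Tmem189 overlaps Cebpb on the other strand with 1128 to 1340 reads per library.

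Of the effector genes, Asns (ENSMUSG00000029752, chr6:7675169-7693254, minus strand), which encodes the enzyme that makes asparagine and whose site is printed above, was at 8.19 and 12 FPKM in the controls. It was at 15.8 and 16.5 FPKM in the DMF libraries, above both controls. The mean was 10.1 ± 2.69 FPKM in control and 16.2 ± 0.443 FPKM in DMF libraries (SD, n = 2). The log2 difference was 0.65 ± 0.23 (SE, limma adjusted p = 0.521), 0.90 without control 2 and 0.40 without control 1. No other gene of the table overlaps Asns.

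Trib3 (ENSMUSG00000032715, chr2:152337422-152344032, minus strand) encodes a pseudokinase that binds ATF4 and damps its activity. It was at 5.52 and 8.51 FPKM in the controls and at 13.2 and 13.6 FPKM in the DMF libraries, with 208 to 539 reads per library. The DMF libraries lay close together and well above the higher control. The mean was 7.02 ± 2.12 FPKM in control and 13.4 ± 0.242 FPKM in DMF libraries (SD, n = 2), the largest ratio of the 10 genes. Its log2 difference of 0.87 ± 0.24 (SE, limma adjusted p = 0.434) ranked 561 by p among all tested genes. It was 1.14 without control 2 and 0.60 without control 1.

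A pair of genes restrains mTORC1, the kinase complex that couples amino acid supply to growth, and they differed in their values. Sesn2 (ENSMUSG00000028893, chr4:132492032-132510501, minus strand), a leucine sensor that acts on the GATOR complex, was at 56 and 52.3 FPKM in the controls and at 76.6 and 75.3 FPKM in the DMF libraries. Its controls lay closest together of the 10 genes, and it was the only one with control 2 below control 1. The log2 difference was 0.48 ± 0.19 (SE, n = 2 per group, limma adjusted p = 0.543), and it was 0.43 without control 2 and 0.53 without control 1, the smallest spread between these 2 settings among the 4 genes above both controls.

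Ddit4 (ENSMUSG00000020108, chr10:59949669-59951834, minus strand) encodes REDD1, which acts on mTORC1 through the TSC complex. It was the most abundant of the 10 genes, at 240.3 and 293 FPKM in the controls and at 257 and 255 FPKM in the DMF libraries. In FPKM the DMF values again lay between the controls. The recovered reads, not divided by library size, were 7476 and 7165 in the controls and 8261 and 8346 in the DMF libraries. The log2 difference was -0.05 ± 0.27 (SE, n = 2 per group, limma adjusted p = 0.927). It was 0.09 without control 2 and -0.19 without control 1, and 0.48 under quantile normalization, 0.27 with the length trend removed and 0.12 with voom. In FPKM the gap between the controls was wider than the difference of either control from the DMF libraries.

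Ppp1r15a (ENSMUSG00000040435, chr7:45522916-45526268, minus strand) encodes GADD34, the inducible subunit of the phosphatase that removes phosphate from eIF2 and so ends the response. It was at 24.6 and 32.8 FPKM in the controls and at 23.4 and 22.3 FPKM in the DMF libraries. Both DMF libraries lay below control 1 by a small margin and below control 2 by a larger one. The log2 difference was -0.30 ± 0.22 (SE, n = 2 per group, limma adjusted p = 0.571), -0.10 without control 2 and -0.50 without control 1.

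Without control 2, limma called 6 of the 10 genes at an adjusted p under 0.05, all higher in DMF: Atf4, Atf5, Ddit3, Trib3, Sesn2 and Asns, with adjusted p from 0.0208 (Trib3) to 0.049 (Atf4). Of all tested genes, 2.77% were called higher and 5.51% lower in that setting. Without control 1, all 10 were called, 4 higher and 6 lower, against 27.6% and 33.4% of all tested genes. Asns, Trib3, Sesn2 and Atf5 were called higher in both settings. In each of them a single control stands for its group and is assumed to vary like the DMF libraries, which differed by a median of 0.0417 (log2) in the 10 genes while the controls differed by 0.473. These calls therefore rest on the closeness of the DMF libraries.

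**Figure D2:**
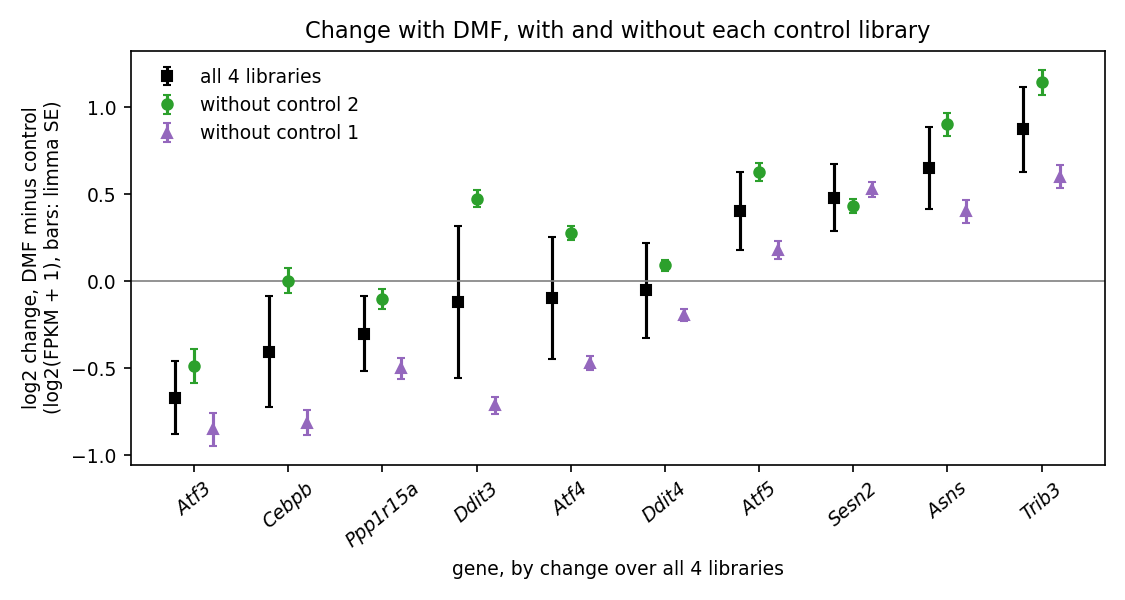
Log2 change, DMF minus control, of each gene with its limma standard error, from all 4 libraries (black squares), without control 2 (green circles) and without control 1 (purple triangles). Trib3, Asns, Sesn2 and Atf5 lie above 0 and Atf3 and Ppp1r15a below 0 in all 3 settings, while Atf4, Ddit3 and Ddit4 change sign between the last 2 and Cebpb lies at 0.0032 without control 2 and below 0 otherwise.

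The order of the levels differed between the groups, per length in FPKM. Ddit4 and Atf4 led in all 4 libraries, and the control ranges of this pair overlapped. In the control means Sesn2, Ddit3, Ppp1r15a, Atf5, Cebpb, Atf3, Asns and Trib3 followed in that order. In both DMF libraries Atf5 stood above Ppp1r15a, Asns above Cebpb, and Trib3 above Atf3, which was last. The ranges of neighbours in the control order overlapped, except for Atf4 with Sesn2 and Atf3 with Asns. No neighbours in the DMF order overlapped, although Asns, Cebpb and Trib3 all lay within 13.2 to 16.5 FPKM.

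As a description chosen after the values were seen, each gene was also set against Atf4 in the same library, a ratio that no rescaling of a library can change. Trib3 stood at 3.33% and 3.05% of the Atf4 FPKM in controls 1 and 2 and at 6.47% and 6.87% in the DMF libraries. Asns stood at 4.94% and 4.29% in the controls and at 7.74% and 8.32% in the DMF libraries. The controls lay close together in both ratios, and the DMF libraries lay above them. Atf3 went the other way, with 8% and 6.22% in the controls and 4.73% and 4.39% in the DMF libraries. Relative to Atf4, the same 4 genes lay above both controls, where 11.7% of all other tested genes did. Of these, Sesn2 had controls far apart, at 33.8% and 18.7%, with the DMF libraries at 37.4% and 38.1%. Atf5 stood at 11% and 9.05% in the controls and at 14% and 14.6% in the DMF libraries. Control 2 enters each ratio through Atf4, where its log2 value was 0.56 above the mean of the others. Atf3, Ppp1r15a and Cebpb lay below both controls, where 26.1% of all other tested genes did. Ddit3, at 14.7% and 20.3% in the controls and 16.5% and 17.5% in the DMF libraries, still lay between the controls.

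**Figure D3:**
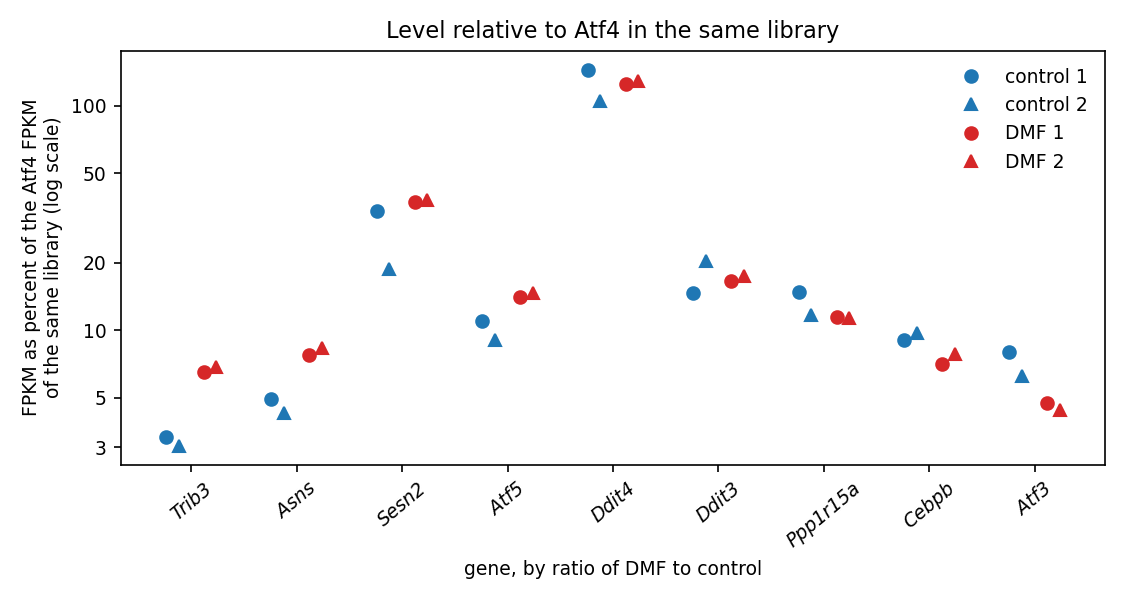
FPKM of 9 genes as a percentage of the Atf4 FPKM of the same library (log axis), with circles and triangles for replicates 1 and 2, blue for control and red for DMF. Trib3 is at 3.33% and 3.05% in the controls and at 6.47% and 6.87% in the DMF libraries, and Atf3, at the other end, is lower in DMF.

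Upstream of ATF4, the kinases of eIF2 were all expressed. Eif2ak4, which encodes GCN2, the sensor of uncharged tRNA, was at 3.43 and 1.86 FPKM in the controls and at 5.3 and 4.62 FPKM in the DMF libraries, above both controls (log2 difference 0.74 ± 0.28, SE, limma adjusted p = 0.532). Eif2ak3 (PERK, the ER stress kinase), Eif2ak1 (HRI, the heme-regulated kinase) and Eif2ak2 (PKR, activated by double-stranded RNA) overlapped between the groups, with log2 differences of 0.16, -0.12 and 0.03. Ppp1r15b, the constitutive counterpart of Ppp1r15a, was at 31.9 and 20.5 FPKM in the controls and at 34.5 and 37 FPKM in the DMF libraries. It lay above both controls where Ppp1r15a lay below both. Against control 1 the DMF mean was 1.12 times for Ppp1r15b and 0.928 times for Ppp1r15a. Against control 2 it was 1.74 and 0.697 times. Ppp1ca, a catalytic subunit of that phosphatase, was at 373 and 572 FPKM in the controls and at 331 FPKM in each DMF library, below both controls, while Eif2s1, the phosphorylated subunit of eIF2, and Dnajc3, an inhibitor of PERK, differed by -0.09 and 0.03 (log2). Of the 5 genes for eIF2B, the exchange factor that phosphorylated eIF2 blocks, Eif2b2 and Eif2b4 lay below both controls, and Eif2b1, Eif2b3 and Eif2b5 overlapped. Their median of -0.33 was 0.03 without control 2 and -0.68 without control 1.

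A list of 47 other genes known as ATF4 targets, 39 of them tested, held 20 genes above both controls and 4 below both, against 26.4% and 26.8% of all tested genes. Their median log2 change was 0.18, and no gene passed. The median was 0.35 without control 2, 0.09 without control 1 and 0.41 under quantile normalization. The 4 smallest p belonged to Chac1, Slc7a5, Nfil3 and Psat1. Chac1, which degrades glutathione, was at 1.48 and 2.06 FPKM in the controls and at 4.27 and 4.58 FPKM in the DMF libraries. Slc7a5, a carrier of large neutral amino acids, was at 35.6 and 27.2 FPKM in the controls and at 62.9 and 64.7 FPKM in the DMF libraries. Psat1, an enzyme of serine synthesis, was at 36.6 and 42.9 FPKM in the controls and at 68.5 and 68 FPKM in the DMF libraries. In these 3 both DMF libraries exceeded both controls, as in Asns and Trib3. Nfil3, a bZIP repressor, lay below both, at 7.8 and 10.1 FPKM in the controls and 3.51 and 4.92 FPKM in the DMF libraries. The list was chosen with earlier results of these data known, so its counts are a description and no test. The calls that follow also set a single control against the DMF libraries and rest on the closeness of the DMF libraries. Without control 2, limma called 13 of the 39 higher and 0 lower, where 2.77% and 5.51% of all tested genes were called. Without control 1, it called 16 higher and 8 lower, where 27.6% and 33.4% of all tested genes were called.

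**Figure D4:**
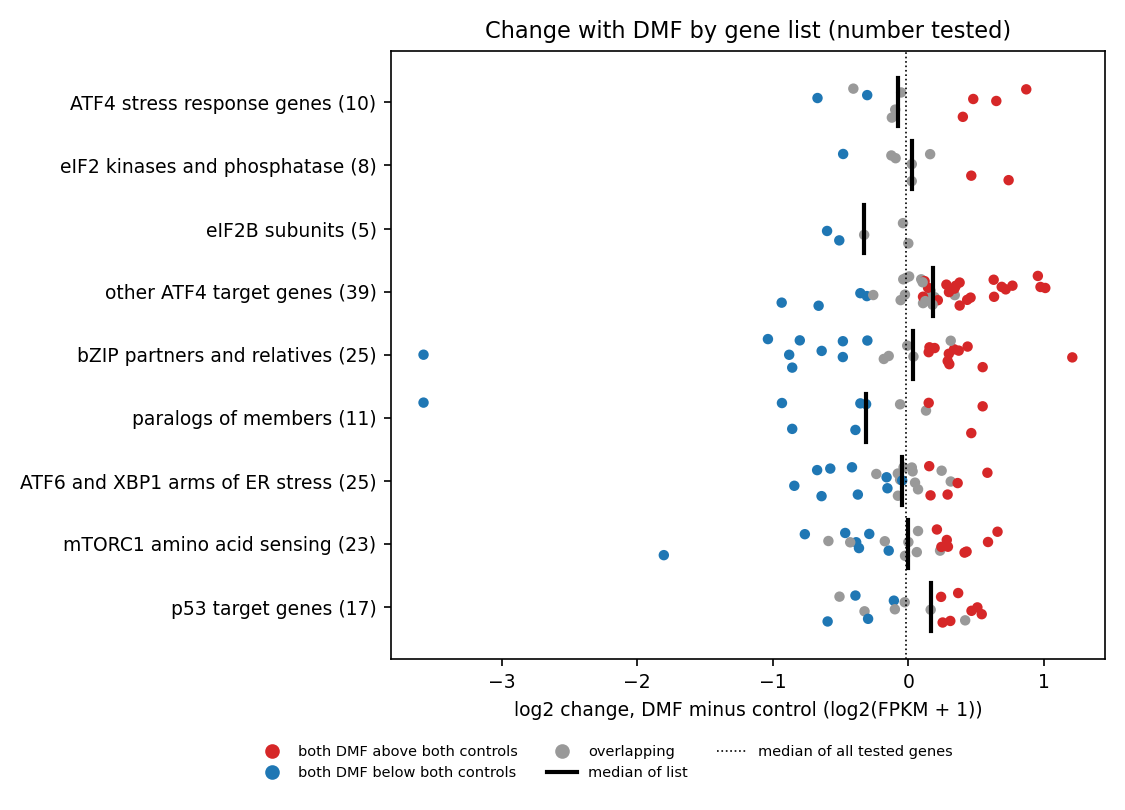
Log2 change, DMF minus control, of every tested gene in the 10-gene set and in 8 lists around it, red where both DMF libraries lie above both controls, blue where both lie below and grey where the groups overlap; short bars are list medians and the dotted line is the median of all tested genes. The other ATF4 targets have a median of 0.18, and the list of paralogs and wider relatives of the 10 genes one of -0.31.

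Among bZIP partners and relatives, 11 of 25 tested genes (44%) lay above both controls and 9 (36%) below both, against 26.4% and 26.8% of all tested genes. Batf3, a BATF family factor related to ATF3, had the largest difference, at 10.2 and 26.3 FPKM in the controls and 0.342 and 0.604 FPKM in the DMF libraries (log2 difference -3.58 ± 0.47, SE, limma adjusted p = 0.196). Maf, at 4.61 and 2.75 FPKM in the controls, was at 8.71 and 10.6 FPKM in the DMF libraries. Fosl2, an AP-1 subunit, and Cebpd, a relative of Cebpb, lay below both controls, with log2 differences of -0.88 and -0.86. Cebpg, the C/EBP protein that pairs with ATF4, was at 8.09 and 8.52 FPKM in the controls and at 9.35 and 9.31 FPKM in the DMF libraries.

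A further list held paralogs and wider relatives of the 10 genes, such as Atf7. Of its 11 tested genes, 3 (27.3%) lay above both controls, close to the 26.4% of all tested genes. Below both lay 6 (54.5%), against 26.8%. Trib2, a relative of Trib3, was at 91.4 and 75.9 FPKM in the controls and at 43.8 and 42.6 FPKM in the DMF libraries (log2 difference -0.93 ± 0.21, SE, limma adjusted p = 0.331), below both controls where Trib3 lay above both. Sesn1 was at 12.1 and 10.7 FPKM in the controls and at 7.99 and 8.96 FPKM in the DMF libraries, again opposite to Sesn2. Sesn3 and Trib1 overlapped between the groups, at 0.13 and -0.06 (log2). Ddit4l, at -0.31, and Jdp2, at -0.35, lay below both controls, and Atf7, at 0.55, lay above both. The DMF mean of Atf7 was 1.08 times control 1 and 2.39 times control 2. Cebpa and Cebpe were below the filter on low values. Several of these genes also stand in other lists, so the counts of the lists are not separate. Ppp1r15b is in the eIF2 list, and Atf7, Batf3, Cebpd and Cebpg are among the bZIP relatives. Jdp2 is among the other ATF4 targets and Sesn1 among the p53 targets. The median log2 change over this list was -0.31, with all libraries and without either control, and -0.16 with the gene length trend removed.

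The ATF6 and XBP1 arms of ER stress, which act beside ATF4, held 5 of 25 tested genes (20%) above both controls and 9 (36%) below both, against 26.4% and 26.8% of all tested genes. Hspa5, the ER chaperone BiP, was at 147 and 164 FPKM in the controls and at 158 and 169 FPKM in the DMF libraries, a difference within the spread of the controls. Derl3, Xbp1, Sec61b and Derl2 had the smallest p in this list, with log2 differences of -0.67, -0.58, -0.84 and -0.37. Their DMF means were 0.551, 0.807, 0.832 and 0.856 times control 1 and 0.392, 0.541, 0.368 and 0.656 times control 2. The list's median of -0.04 was 0.20 under quantile normalization.

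In the list of mTORC1 amino acid sensing genes, 8 of 23 (34.8%) lay above both controls and 7 (30.4%) below both, near the 26.4% and 26.8% of all tested genes. Castor1, an arginine sensor that acts on the same GATOR complex as Sesn2, was at 18.5 and 35 FPKM in the controls and at 6.49 and 6.7 FPKM in the DMF libraries (log2 difference -1.80 ± 0.34, SE, limma adjusted p = 0.269), below both controls where Sesn2 lay above both. Nprl2, Castor2 and Tsc2 had log2 differences of -0.76, -0.46 and 0.42. Among p53 targets, a list included because p53 also induces Sesn2 and Atf3, 7 of 17 (41.2%) lay above both controls and 4 (23.5%) below both, against 26.4% and 26.8% of all tested genes. The 4 smallest p there belonged to Plk3, Zmat3, Sesn1 and Polk, with log2 differences of 0.51, 0.54, -0.39 and 0.47.

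Myeloid cells express Atf3 and Cebpb, so markers of other cells were set beside these results. The summed FPKM of 12 myeloid markers was 9.34 and 12.7 in the controls and 9.8 and 7.89 in the DMF libraries. Of the 12, 3 lay above both controls and 6 below both, counts that include genes with fewer than 10 reads. Only 3 passed the filter on low values, 1 above both controls and 2 below both, where 26.4% and 26.8% of all tested genes lay. Cd68 lay above both controls, at 4.62 and 5.43 FPKM in the controls and 5.82 and 5.84 FPKM in the DMF libraries. Lyz2 and Cd14 lay below both, like Atf3: Lyz2 was at 2.4 and 3.33 FPKM in the controls and 1.58 and 0.407 FPKM in the DMF libraries, and Cd14 at 1.44 and 3.29 against 0.487 and 0.613 FPKM. S100a8, S100a9, Itgax, Csf1r, Fcgr3 and Mpo had fewer than 10 reads in every library. The sum of 9 B cell markers was 12.2 and 15.4 FPKM in the controls and 28.6 and 28.4 FPKM in the DMF libraries. Of the 9, 8 lay above both controls, and 6 of the 7 tested did (85.7%), against 26.4% of all tested genes. The sum of 8 markers of CD8 T and NK cells was 14.5 and 23.1 against 3.46 and 3.17 FPKM, with Ncr1 and Klrb1c at 0. Of the 8, 6 lay below both controls, including all 3 tested, against 26.8% of all tested genes. The sum of 5 red blood cell markers was between 0.549 and 2.82 FPKM. Markers of CD4+ T cells were abundant, at a sum of 1601.6 and 2498.1 FPKM in the controls and 1609 and 1597.1 FPKM in the DMF libraries. Of these 8 markers, 0 lay above both controls and 4 (50%) below both, against 26.4% and 26.8% of all tested genes. The part of the myeloid, B cell, CD8 T and NK cell RNA in the values of the 10 genes was not tested, and in bulk RNA fewer cells of a type and less RNA per cell cannot be told apart.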

How the data were processed

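RNA-seq of 2 control and 2 DMF libraries was analysed. The authors deposited FPKM per gene in 1 table, which also gives gene lengths and coordinates, per the file headers. The submitters' processing notes name edgeR and the build mm8, without a role; the aligner and the way of counting, strand included, are not given in these sources. Of 54409 identifiers found in GENCODE M21 (GRCm38), 98.33% have the same coordinates, so coordinates are GRCm38. FPKM times gene length gave whole multiples of 1 step for 100% of values (within 0.01), from which reads were recovered (15900118 to 17516953 per library). The columns of all 4 libraries were used.

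The main test was limma 3.58.1 (R 4.3.3; lmFit, eBayes with a trend), a two-sided test of DMF minus control on log2(FPKM + 1) with no covariate, over the 12166 genes with a mean of at least 1 FPKM, with Benjamini-Hochberg adjustment over all of them and a threshold of 0.05. Log2 changes on this scale understate those of low genes. The genes and lists were chosen with earlier results of these data known. All genes of the short lists were named, and the 4 with the smallest p of each long list. Alternatives were pseudocounts of 0.1 and 0.5, no filter, a mean of at least 5 FPKM, trimmed mean scaling (30% of ratios, 5% of levels), quantile normalization, eBayes without a trend or robust, the replicate number as a block, voom on recovered reads, removal of a gene length trend (loess, span 0.3) and each library left out. Scripts were tested on simulated data. Promoters come from RefSeq (GRCm38.p6).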

Additional observations from a re-analysis of the deposited data

How the results depend on the processing

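Over 15 alternative settings, Atf3, Atf5, Trib3, Sesn2, Ppp1r15a and Asns kept the sign of their log2 change, with ranges of -0.85 to -0.40, 0.18 to 0.70, 0.60 to 1.15, 0.43 to 0.77, -0.50 to -0.10 and 0.40 to 0.90. The other 4 genes changed sign in some. Under quantile normalization Atf4, Ddit3 and Ddit4 were at 0.45, 0.15 and 0.48, with voom on recovered reads at 0.071, 0.0471 and 0.12, and with the gene length trend removed at 0.15, 0.21 and 0.27. With each library left out in turn, Atf4 ran from -0.47 to 0.28, Ddit3 from -0.71 to 0.47, Ddit4 from -0.19 to 0.0904 and Cebpb from -0.81 to 0.0032, each highest without control replicate 2. The median of the 10 genes was 0.47 under quantile normalization, 0.24 with the length trend removed, and -0.33 to 0.36 with each library left out. Without control replicates 1 and 2 and DMF replicates 1 and 2 in turn, 7420, 1007, 8 and 6 of all tested genes passed, and 10, 6, 0 and 0 of the 10; the cause was not tested. With the replicate number as a block, 552 genes passed and 0 of the 10 did; the labels do not say that a number marks a shared animal or day, and the replicate differences of the 2 groups correlated at -0.0233 over genes. In the other 10 settings 0 genes passed. The precision rests on 2 libraries per group, and each of the 10 genes had at least 208 reads in every library.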
